A study of Mus musculus with 2197 samples.

Results

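Cells that carried the Ngn3-GFP reporter were sorted from the mouse pancreas on embryonic days E16.5 and E17.5 and sequenced one by one with Smart-seq2, a plate-based protocol that reads full-length cDNA. The cells compared here are all those with the labels Ngn3-GFP+ and E16.5 (130 cells) or E17.5 (125 cells), 255 of the 2195 Smart-seq2 cells of the series. Each day holds 4 sets, a set being the number before the cell number in a sample title. The E16.5 sets hold 37, 17, 41 and 35 cells and the E17.5 sets 34, 40, 22 and 29. The series follows mouse pancreatic lineages over embryonic days, and the design states that cells with low and high reporter signal could not be parted at the late stages, so all GFP+ cells were taken. Both groups come from 1 knock-in strain in which GFP reports the Neurog3 locus (Ngn3 is the older name), and the labels name no treatment, sex or litter. The GFP protein can outlast the Neurog3 transcript, so the gate holds cells past the progenitor stage. A second sort of the same days, Sox9-CreER;Rosa-RFP+ duct-lineage cells (55 cells at E16.5 and 34 at E17.5, 2 sets each), served as a comparison.

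Neurog3 is the transcription factor that commits cells of the pancreatic trunk epithelium to the endocrine fate. Its expression is brief, after which cells leave the cell cycle, switch on the secretory granule machinery and take up insulin, glucagon, somatostatin, ghrelin or pancreatic polypeptide production. Late gestation is the period in which beta and alpha cells accumulate and islets begin to form.

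The total of gene counts ran from 176524 to 1897819 a cell, with a median of 830033, and the sets summed to 14869467 to 40823831 counts. A cell had between 5034 and 10531 genes with a count (median 7382). CPM is a gene's count scaled to 1000000 gene counts of the cell or, with TMM scaling (a correction of library totals), of the set. The labels do not say whether sets are embryos, litters or plates, so a p-value here speaks of how sets vary, and that variation may be technical. On both days, sets 1 and 2 had a larger median share of ERCC spike-in counts (2.49% to 4.13%) than sets 3 and 4 (1.35% to 1.59%). Sex-linked transcripts also differed. At a threshold of 20 CPM, 22 E16.5 cells had Y-linked genes (4 summed) without Xist and 81 the reverse, against 79 and 41 at E17.5. A further 25 E16.5 cells (13 of them in set 1) and 3 E17.5 cells reached it for neither, and 2 cells of each day for both. In sets 1 and 4 of E17.5 no cell reached it for Xist. In sets 3 and 4 of E16.5 and set 3 of E17.5 no cell had Y-linked genes without Xist. The part of sex in the differences below was not tested. The 17 cells of E16.5 set 2 stood apart in that none reached 100 CPM of Neurog3 and none lacked a hormone.

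The reporter's own gene was low in most cells. Neurog3 stood at 190, 0.354, 122 and 216 CPM in the E16.5 sets and at 42.03, 161, 697 and 6.99 CPM in the E17.5 sets. The days overlapped over nearly their whole range, with a log2 fold change of 0.78 ± 1.40 (SE; p = 0.589 before adjustment, edgeR's quasi-likelihood test), and without E17.5 set 3 the sign turned (log2 fold change -0.92). Only 18 of 130 E16.5 cells and 11 of 125 E17.5 cells reached 100 CPM, or 12.0% ± 8.25 of cells at E16.5 and 9.49% ± 6.23 at E17.5 (mean ± SD over 4 sets; exact permutation test, two-sided, p = 0.657). The endocrine label held for most cells otherwise. Genes of the secretory granule, counted over 18 members, summed to 8569 to 17358 CPM at E16.5 and 13076 to 17118 CPM at E17.5, and 194 of the 255 cells had an islet hormone at 1000 CPM or more.

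Each cell was placed by its leading hormone, the highest of insulin (Ins1 plus Ins2), Gcg (glucagon), Sst (somatostatin), Ghrl (ghrelin), Ppy (pancreatic polypeptide) and Pyy (peptide YY) if that hormone reached 1000 CPM. By this rule 98 cells were insulin-leading, 46 glucagon-leading, 12 somatostatin-leading, 7 ghrelin-leading and 31 Pyy-leading, and 61 had none. Ppy led in 0 cells. The classes were mostly far from the threshold: median levels of the leading hormone were 95408 CPM for insulin, 74804 CPM for Gcg, 40037 CPM for Sst and 34482 CPM for Ghrl. The Pyy-leading class was the weakest, at a median of 7573 CPM with 7 of its 31 cells within 2-fold of the threshold, and 5 of the 61 cells without a hormone came within 2-fold of it from below.

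The start regions of 4 of the hormone genes that define these classes are shown for orientation, as the 250 bases before the transcript start (RefSeq, GRCm38.p6, 5′ to 3′ on the gene's strand). Capitals mark TAAT, the core of many homeodomain factor sites, and CANNTG, the E-box bound by basic helix-loop-helix factors such as Neurog3 and Neurod1, on either strand.
Ins1, chr19:52264047-52264296, plus strand: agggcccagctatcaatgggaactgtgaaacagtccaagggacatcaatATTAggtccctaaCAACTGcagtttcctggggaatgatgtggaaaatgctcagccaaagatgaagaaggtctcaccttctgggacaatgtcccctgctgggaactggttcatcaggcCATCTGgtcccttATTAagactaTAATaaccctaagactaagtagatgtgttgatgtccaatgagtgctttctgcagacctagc
Gcg, chr2:62483654-62483903, minus strand: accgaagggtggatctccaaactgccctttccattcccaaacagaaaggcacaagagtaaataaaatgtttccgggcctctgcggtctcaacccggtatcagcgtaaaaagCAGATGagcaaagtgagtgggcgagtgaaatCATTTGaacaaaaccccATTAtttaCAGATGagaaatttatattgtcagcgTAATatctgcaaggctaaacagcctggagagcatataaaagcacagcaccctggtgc
Sst, chr16:23890845-23891094, minus strand: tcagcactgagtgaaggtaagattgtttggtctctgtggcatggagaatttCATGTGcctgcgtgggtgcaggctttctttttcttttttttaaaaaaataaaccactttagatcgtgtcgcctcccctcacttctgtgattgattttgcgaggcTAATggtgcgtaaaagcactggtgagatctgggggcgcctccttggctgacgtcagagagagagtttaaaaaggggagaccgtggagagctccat
Pyy, chr11:102107833-102108082, minus strand: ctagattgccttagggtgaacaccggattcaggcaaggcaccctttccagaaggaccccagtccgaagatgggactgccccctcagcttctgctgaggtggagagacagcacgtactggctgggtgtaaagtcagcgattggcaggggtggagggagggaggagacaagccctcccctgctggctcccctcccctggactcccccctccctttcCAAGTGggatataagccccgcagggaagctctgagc

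The Ins1 window holds 3 TAAT and 2 CANNTG, that of Gcg 2 and 3, that of Sst 1 and 1, and that of Pyy 0 and 1. Over all 32851 promoter windows of this length, 54.9% hold TAAT and 66.2% hold CANNTG on either strand, so a match is a description of the letters and not a site. Ins2 was not among the sequences at hand.

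No hormone gene differed between the days beyond its spread over sets. Ins1, 1 of the 2 mouse insulin genes, measured 15049, 34218, 5115 and 3599 CPM in the E16.5 sets and 8315, 53802, 4233 and 12633 CPM in the E17.5 sets. The highest set of each day was set 2, and the days overlapped (Ins1 log2 fold change 0.45 ± 0.88, p = 0.622). Ins2 ran from 7787 to 78185 CPM at E16.5 and from 5826 to 83900 CPM at E17.5 (0.18 ± 0.88). Iapp, the amyloid peptide stored with insulin, ran from 5118 to 21981 and from 7484 to 29914 CPM (0.39 ± 0.56). Without E17.5 set 2 the log2 fold changes of Ins1, Ins2 and Iapp became -0.78, -0.74 and -0.19, so the sign of all 3 rested on that set. The sign for Ins2 also turned without E16.5 set 3 (-0.07) or set 4 (-0.14). Gcg was the steadiest of these genes, at 11927, 27934, 10858 and 11688 CPM against 8617, 29126, 21514 and 16712 CPM (0.28 ± 0.44).

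The minor hormones were uneven in the same way. Sst stood at 1151, 31.1, 1.10 and 1440 CPM at E16.5 and at 2392, 7071, 1818 and 194 CPM at E17.5, with 3 of the 4 E17.5 sets above every E16.5 set (log2 fold change 2.13 ± 1.56, p = 0.203). Ppy measured 383, 318, 116 and 15.1 CPM and then 531, 2331, 641 and 56.5 CPM (2.1 ± 1.06, p = 0.0772). Pyy measured 4336, 3276, 1950 and 712 CPM and then 3435, 11984, 3270 and 2564 CPM (1.05 ± 0.62, p = 0.122). Ghrl measured 290, 3863, 232 and 333 CPM and then 2996, 3.45, 3221 and 4346 CPM, so that set 2 was the highest E16.5 set and the lowest E17.5 set (1.16 ± 1.40). Npy, a neuropeptide of embryonic beta cells, was the only one of the 9 hormone genes with a negative value (-1.71 ± 1.22), with 59.1 to 711 CPM at E16.5 and 7.11 to 419 CPM at E17.5. None of the 9 passed the adjusted threshold (all adjusted p = 0.999, edgeR's quasi-likelihood test).

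**Figure D1:**
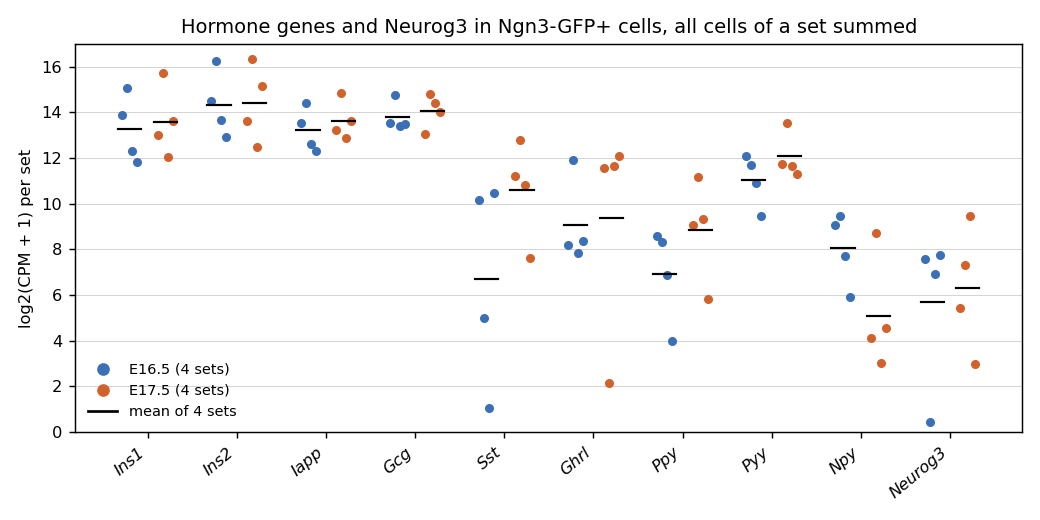
Level of each hormone gene and of Neurog3 per set on a log2(CPM + 1) axis, with 4 points and a black mean bar for each day. Points of the days interleave for every gene, and set 2 of E16.5 (27934 CPM of Gcg) and of E17.5 (53802 CPM of Ins1) lie at the top.

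The mix of classes did not differ between the days beyond its spread over sets. Insulin-leading cells made up 38.4% ± 26.9 of a set at E16.5 and 42.1% ± 20.4 at E17.5, glucagon-leading cells 19.1% ± 4.15 and 18.3% ± 4.05, and Pyy-leading cells 11.1% ± 14.2 and 12.0% ± 5.26 (mean ± SD, n = 4 sets a day). Exact permutation tests over sets, two-sided, gave p of 0.886, 0.857 and 0.943 for these shares, where 4 sets against 4 cannot give less than 0.0286. Somatostatin-leading cells numbered 2 at E16.5 and 10 at E17.5, 1.39% ± 1.61 against 7.71% ± 5.26 (exact permutation p = 0.143, adjusted 0.457). Ghrelin-leading cells numbered 2 and 5.

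Cells without a hormone were found in 7 of the 8 sets. They were 16.2%, 0%, 41.5% and 57.1% of the E16.5 sets and 20.6%, 10.0%, 27.3% and 3.45% of the E17.5 sets, a mean of 28.7% ± 25.5 against 15.3% ± 10.6 (exact permutation p = 0.4). Among sets 1 and 2 the mean was 8.11% at E16.5 and 15.3% at E17.5, and among sets 3 and 4 it was 49.3% and 15.4%, so the direction differed between the pairs of sets that differ in ERCC share.

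Cells with 2 or more hormones at 1000 CPM formed a larger share of every E17.5 set than of any E16.5 set. They were 13 of 37, 4 of 17, 13 of 41 and 7 of 35 cells in the E16.5 sets (35.1%, 23.5%, 31.7% and 20%). In the E17.5 sets they were 15 of 34, 20 of 40, 11 of 22 and 13 of 29 (44.1%, 50%, 50% and 44.8%). The means were 27.6% ± 7.02 and 47.2% ± 3.20, with the smallest p that 4 against 4 sets allow (exact permutation, p = 0.0286), which did not pass after adjustment over the 8 shares tested (adjusted p = 0.229). Within sets 1 and 2 the means were 29.3% and 47.1%, and within sets 3 and 4 they were 25.9% and 47.4%. When any 1 set was left out the difference stayed between 17.1 and 22.2 percentage points. Counted on hormones other than Pyy the shares were 8.84% ± 2.56 and 23.3% ± 3.86 (exact permutation p = 0.0286), and counted among hormone-leading cells alone 41.6% ± 13.04 and 56.6% ± 9.19 (p = 0.0857). With the authors' deposited TPM in place of CPM the difference was 11.2 points, and at a threshold of 5000 CPM it was 12.4 points (exact permutation p = 0.286 and 0.143).

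**Figure D2:**
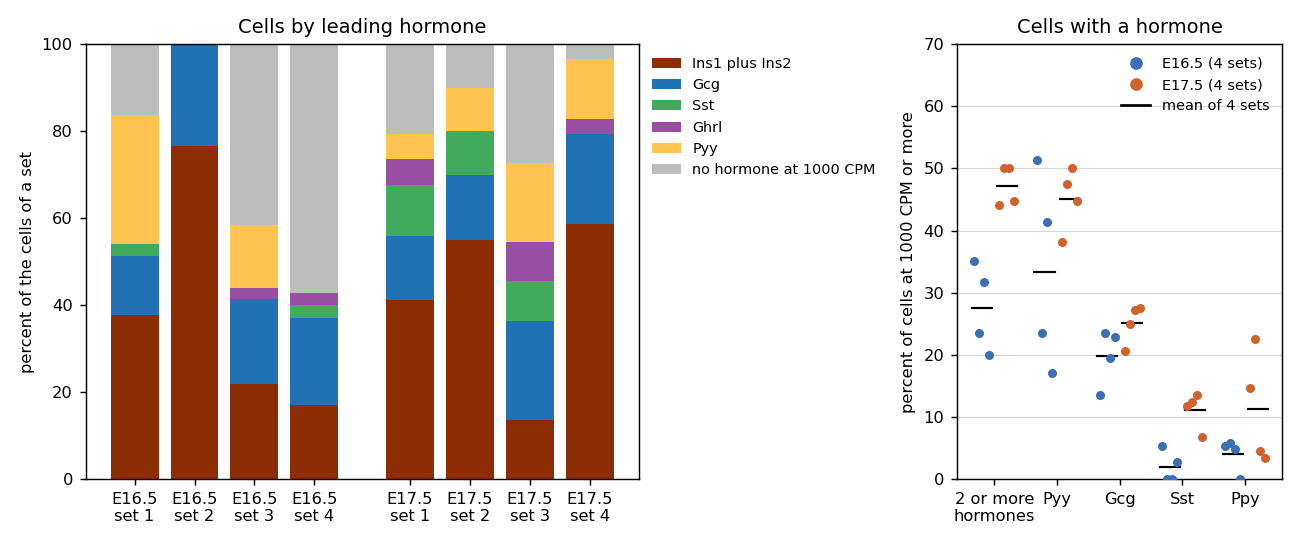
Left, stacked bars of the percentage of cells of each set by leading hormone; right, the percentage of cells at or above 1000 CPM for 2 or more hormones and for single hormones, 1 point per set with the mean as a bar. The shares with 2 or more hormones sit between 20% and 35.1% at E16.5 and between 44.1% and 50% at E17.5.

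The second hormone was most often Pyy. The pair Gcg and Pyy was found in 48 cells (19 at E16.5 and 29 at E17.5), insulin and Pyy in 33 (12 and 21), Ppy and Pyy in 21 (5 and 16) and Sst and Pyy in 12 (2 and 10). Gcg with Ppy was found in 14 cells (3 and 11), Gcg with Ghrl in 13 (6 and 7) and insulin with Gcg in 12 (3 and 9), whereas Gcg and Sst met the threshold together in 0 of 255 cells. By class, 21 of 24 glucagon-leading cells had a second hormone at E16.5 and 22 of 22 at E17.5. Of insulin-leading cells 8 of 42 and 14 of 56 had one, and of Pyy-leading cells 5 of 17 and 11 of 14. Cells over the threshold for Sst were 5.41%, 0%, 0% and 2.86% of the E16.5 sets and between 6.90% and 13.6% of the E17.5 sets, again without overlap (2.07% ± 2.60 against 11.2% ± 2.97, exact permutation p = 0.0286, adjusted 0.171 over 6 hormones). Pyy reached the threshold in 33.4% ± 15.8 and 45.1% ± 5.07 of cells, with overlap. Cells with 2 or more hormones had a median of 817170.5 counts and 7505 genes, against 926588.5 counts and 7458.5 genes in cells with 1 and 650899 counts and 6947 genes in cells with none. No doublet caller was run, and the part of paired cells or of depth in these counts was not tested.

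Genes outside the class rule also differed between the classes, given here as medians over cells without a test. Hhex, a transcription factor needed for delta cells, had a median of 1239 CPM in the 12 somatostatin-leading cells and 0 CPM in both insulin- and glucagon-leading cells. Ptprz1, a receptor phosphatase of delta cells, had a median of 199 CPM there and 0 CPM in every other class. Of the 8 listed delta cell genes, Ghsr, Cckbr and Pdyn were too low over all cells to be tested. Medians of Rbp4 and Bcl2l15 by class, and of Hhex in the remaining classes, are not given here. Mboat4, which acylates ghrelin, had a median of 175 CPM in the 7 ghrelin-leading cells and 0 CPM in every other class. Neurog3 at or over 100 CPM was found in 19 of the 61 cells without a hormone, 6 of 31 Pyy-leading, 2 of 98 insulin-leading and 0 of 46 glucagon-leading cells.

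Over all cells of a set, no gene passed the adjusted threshold of 0.05 between the days. Of 14851 tested genes 0 were called (0%; smallest adjusted p = 0.908, edgeR's quasi-likelihood test), and 513 (3.45%) had an unadjusted p under 0.05. DESeq2 on the same sums called 18, 9 in each direction. The lower calls include the mesenchyme list members Col1a1 and Col3a1, and cells with mesenchyme markers were found only in E16.5 sets 3 and 4. The median standard error of the 4420 genes with at least 50 CPM was 0.23 log2 units. Every E17.5 set lay above every E16.5 set for 196 genes (1.32%) and below for 175 (1.18%), or 2.5% in both directions. Random order of 4 against 4 sets would leave 2 in 70 (a share of 0.0286) without overlap.

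The genes of smallest unadjusted p among those without overlap are given as values that did not pass. Upf2, a factor of nonsense-mediated mRNA decay (ENSMUSG00000043241; mm10 chromosome 2, 5951469 to 6056703), measured 37.1, 29.04, 27.9 and 27.4 CPM at E16.5 and 60.2, 65.6, 79.3 and 86.4 CPM at E17.5 (log2 fold change 1.26 ± 0.20, p = 0.000117). Per3, a component of the circadian clock (chromosome 4, 151003652 to 151044665), measured 19.7, 18.1, 14.9 and 27.1 CPM and then 54.1, 68.2, 39.3 and 50.8 CPM (1.41 ± 0.27). Slc6a6, the taurine transporter (chromosome 6, 91684053 to 91759066), measured 162, 157, 179 and 161 CPM at E16.5 and 245, 359, 258 and 256 CPM at E17.5 (0.77 ± 0.17). These 3 were also among the calls of DESeq2. Slc40a1, the iron exporter ferroportin, had 22.4 to 56.99 CPM against 59.5 to 108 CPM, and Rnf13, Fryl, Rab36, Cdh2 and Lpgat1 also had all E17.5 sets above all E16.5 sets. Leaving out every cell with at least 4 markers of another cell type turned the sign of Rab36 (-0.50) and of Cdh2 (-0.06). But that rule removes 223 of the 255 cells, 217 of which carry markers of the duct and trunk list. The duct and trunk rule is met by 85 of 98 insulin-leading and 37 of 46 glucagon-leading cells, so it does not part duct from endocrine cells.

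On the lower side, Chgb, the granule protein chromogranin B (chromosome 2, 132781278 to 132795079), measured 1918, 2028, 3734 and 1558 CPM at E16.5 and 1302, 1420, 1055 and 1082 CPM at E17.5 (log2 fold change -0.93 ± 0.28, p = 0.00881). Gast, which encodes gastrin, a peptide of the embryonic pancreas (chromosome 11, 100334407 to 100336996), measured 139, 139, 91.2 and 117 CPM and then 3.16, 25.5, 38.3 and 51.2 CPM (-2.04 ± 0.62, p = 0.00856). Its sign turned (0.25) in the few cells left by the same marker rule. Elmo2, a regulator of Rac signalling, had 52.5 to 99.5 CPM against 30.99 to 37.5 CPM (-1.02 ± 0.23). Sdhb, a subunit of mitochondrial complex II, had 231 to 254 CPM against 163 to 185 CPM (-0.44 ± 0.13). Scarb1, Sh3gl2, Serpinh1, Maea, Rqcd1 and Polr2m made up the rest of the 10.

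**Figure D3:**
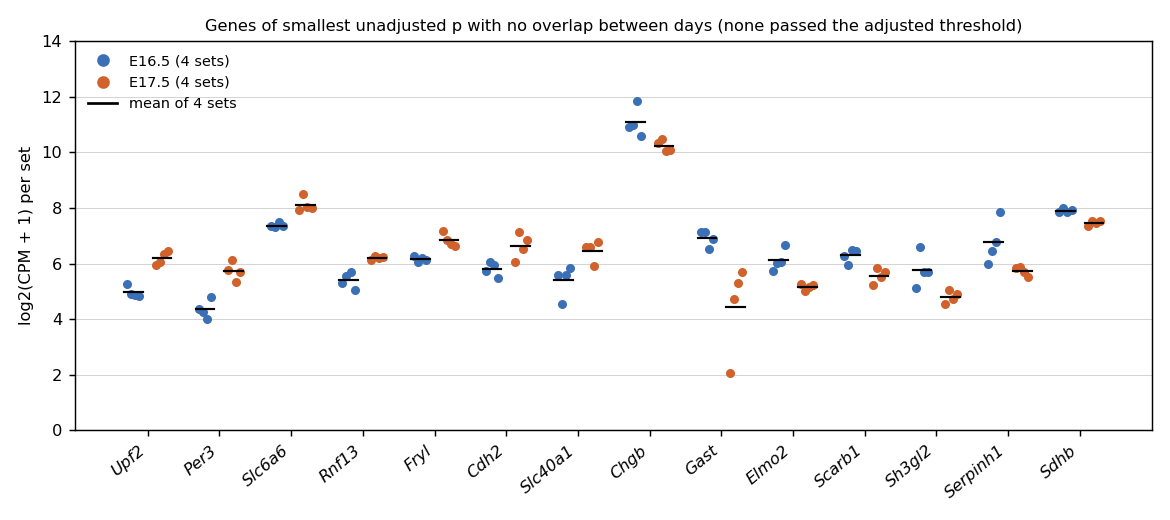
Level per set on a log2(CPM + 1) axis of 14 of the genes with the smallest unadjusted p among those whose sets do not overlap between days, with 4 points and a mean bar for each day. Upf2 runs from 27.4 to 37.1 CPM at E16.5 and from 60.2 to 86.4 CPM at E17.5, and none of these genes passed the adjusted threshold.

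Of the gene lists, 0 members passed in any, so each is described by its count of positive and negative values beside the median over all genes, -0.004 log2 units. Of 18 tested granule and processing genes 13 were positive (median 0.28), among them Chga at 1237 to 3002 CPM against 1774 to 3019 CPM (log2 fold change 0.27 ± 0.29), while the carboxypeptidase gene Cpe stood at -0.04 ± 0.32. Of 25 endocrine transcription factors 19 were positive (median 0.20), with Isl1, a factor shared by the islet lineages, at 528 ± 192 against 720 ± 185 CPM (0.45 ± 0.31). Alpha cell genes counted 10 of 13 (median 0.27), with Ttr at 0.47 ± 0.33 and Slc38a5 at -0.14 ± 0.53, and beta cell genes 12 of 18 (median 0.13). Delta cell genes were positive for 5 of 5 tested out of 8 listed, Sst among them (Ghsr, Cckbr and Pdyn were not tested). Somatostatin-leading cells numbered 2 at E16.5 and 10 at E17.5. Other endocrine lists were divided, with 12 of 22 glucose sensing and insulin release genes (median 0.03), 5 of 11 late endocrine precursor genes (median -0.02) and 5 of 14 beta cell maturation genes (median -0.05) positive.

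All 18 G2 and M phase genes (median -2.79) and all 16 S phase genes (median -0.86) had negative values, none past the threshold. Top2a, a topoisomerase of dividing cells, measured 2.20, 14.1, 95.9 and 211 CPM at E16.5 and 6.36, 44.8, 8.74 and 39.8 CPM at E17.5 (-1.70 ± 1.13). The replication helicase gene Mcm6 had 33.4 to 214 CPM against 23.8 to 72.0 CPM (-1.01 ± 0.52). The high values were those of E16.5 sets 3 and 4, and the 13 E16.5 cells with at least 4 G2 and M genes at 50 CPM were 0, 1, 5 and 7 in the 4 sets, against 4 cells at E17.5. Among insulin-leading cells alone 13 of 14 tested S phase genes were positive (median 0.69), and among glucagon-leading cells 10 of 13 were negative (median -0.55). Only 2 of 98 insulin-leading cells met the G2 and M rule, both at E17.5. Of 46 glucagon-leading cells 2 met it, in E16.5 sets 2 and 3, of which set 2 did not enter. Whether these few cells account for the opposite signs was not tested.

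Sets 3 and 4 of E16.5 also held cells with markers of other types. Mesenchyme genes had a summed level of 9.66 to 3889 CPM at E16.5 and 13.01 to 31.5 CPM at E17.5, and 6 of 6 tested members were negative. Col3a1, a fibrillar collagen, measured 1.196, 0.152, 805 and 1406 CPM at E16.5 and at most 2.48 CPM at E17.5, and the mesenchyme-marker cells were 1 cell of set 3 and 3 of set 4. Duct and trunk genes were negative for 14 of 15 (median -0.55), and cells with at least 4 of 9 narrow duct markers were 14.9% ± 14.3 of E16.5 sets and 6.82% ± 3.72 of E17.5 sets (exact permutation p = 0.4). The narrow list was chosen after most endocrine cells were seen to carry Krt8, Krt18 and claudins, which it leaves out. Acinar genes summed to 88.4 to 2296 CPM and 55.2 to 11080 CPM, with the chymotrypsinogen gene Ctrb1 at 6182 CPM in E17.5 set 2. Leukocyte genes summed to 24.5 to 67.5 CPM, but reached 687 CPM in E17.5 set 3 through 1 cell. No cell met the rule for endothelium, erythroid, neural and glial or liver markers, though liver genes reached 223 CPM in 1 E16.5 set and neural and glial genes 176 to 295 CPM (of which Tubb3, also expressed in endocrine progenitors, 130 to 275 CPM).

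Immediate early genes, which respond within minutes to a stimulus, were negative for 10 of 11. Of these, 5 (Egr1, Fos, Jun, Junb and Zfp36) had an unadjusted p under 0.05 in edgeR's quasi-likelihood test, against 3.45% of all tested genes. None passed the adjusted threshold. Fos measured 183, 1025, 245 and 132 CPM at E16.5 and 245, 147, 65.98 and 74.97 CPM at E17.5 (-1.57 ± 0.68), with the highest value in E16.5 set 2. Metabolic lists leaned to negative values: oxidative phosphorylation genes were negative for 16 of 20 (median -0.15) and glycolysis genes for 12 of 15 (median -0.17), with Atp5a1 at 1024 ± 83.6 against 810 ± 108 CPM (-0.34 ± 0.17) and Pkm at 1154 ± 386 against 908 ± 173 CPM (-0.35 ± 0.26). Imprinted genes were negative for 11 of 16, including Nnat, a lipoprotein of the beta cell secretory pathway, at 5161 ± 4295 against 3251 ± 2372 CPM (-0.67 ± 0.72).

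Within insulin-leading cells the days could be compared over 4 sets at E16.5 and 3 at E17.5, since E17.5 set 3 held 3 such cells and was left out. Of 12940 tested genes 0 passed (0%; 530 at an unadjusted p under 0.05; DESeq2 12), and 918 genes (7.09%) had no overlap between days, 540 of them higher (4.17%) and 378 lower (2.92%) at E17.5. With 4 sets against 3, random order leaves more genes without overlap than with 4 against 4. The share therefore cannot be set against the 2.5% over all cells. Chgb again had every E17.5 set below every E16.5 set, with 2610, 2423, 2956 and 2482 CPM against 1420, 1592 and 1198 CPM (log2 fold change -0.90 ± 0.19, unadjusted p = 0.000907). Tmem248, which encodes a membrane protein, had 136, 134, 159 and 123 CPM against 67.4, 74.3 and 72.8 CPM (-0.95 ± 0.20). Srm, the enzyme that makes spermidine, had 142 ± 21.3 against 77.0 ± 12.1 CPM. On the higher side, Spp1, the secreted phosphoprotein osteopontin, had 2.74, 0.0645, 2.49 and 0.648 CPM against 14.2, 133 and 356 CPM (6.79 ± 1.18). Spp1 is also a duct gene of the lists used here, and 5 of the 98 insulin-leading cells had at least 4 of the 9 narrow duct markers. Of 11 tested duct and trunk genes 5 were positive and 6 negative. Whether those cells carry the Spp1 values was not tested. Cd79a, best known as a B cell receptor chain, had 0 to 5.66 CPM against 26.03 to 107 CPM (4.06 ± 0.94). Ogt, the enzyme that adds N-acetylglucosamine to proteins, had 66.5 ± 23.8 against 161 ± 47.8 CPM (1.28 ± 0.34). Chgb, Tmem248, Spp1 and Cd79a were also among DESeq2's calls. Oxidative phosphorylation genes were negative for 19 of 20 (median -0.29, over all genes 0.02), beta cell maturation genes for 9 of 14 (median -0.48), and folding genes of the endoplasmic reticulum for 8 of 15 (median -0.01).

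Within glucagon-leading cells 3 E16.5 sets (set 2 held 4 cells) and 4 E17.5 sets entered. Of 11533 genes 0 passed (0%; 355 at an unadjusted p under 0.05; DESeq2 67), and 659 (5.71%) had no overlap, 295 of them higher (2.56%) and 364 lower (3.16%). The same limit of 3 sets against 4 holds for this share. The calls of DESeq2 include the Y-linked genes Ddx3y, Uty, Eif2s3y and Kdm5d, whose levels go with the sex-linked differences between sets given above. Mest, an imprinted gene expressed from the paternal allele (chromosome 6, 30723547 to 30748465), had 210, 115 and 30.03 CPM at E16.5 and 1.01, 5.34, 3.73 and 0.718 CPM at E17.5 (log2 fold change -5.43 ± 0.87, unadjusted p = 8.24e-05). Slc6a6 had 83.5, 143 and 97.7 CPM against 235, 286, 272 and 236 CPM (1.25 ± 0.28). Tm4sf4, a tetraspanin-like membrane protein of the endocrine lineage, had 175, 193 and 277 CPM against 731, 628, 356 and 514 CPM (1.38 ± 0.32). Cacna1d, a pore subunit of L-type calcium channels, had 9.02 to 10.7 CPM against 39.3 to 91.7 CPM (2.60 ± 0.57). Upf2 had 39.6, 21.7 and 19.7 CPM against 114, 80.1, 124 and 72 CPM, in the same direction as over all cells. Ppp1r1a, an inhibitor of protein phosphatase 1 that is abundant in beta cells, had 72.6 ± 24.4 against 22.4 ± 5.93 CPM (-1.69 ± 0.49).

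The difference between the day changes of the 2 classes, tested within 6 sets, passed for 0 of 13095 genes (0%; 451 at an unadjusted p under 0.05). The smallest p belonged to Nudt11, at 0, 0 and 0 CPM in insulin-leading cells of E16.5 and 1.67 to 8.41 CPM at E17.5, with 54.8 to 143 CPM in glucagon-leading cells on both days. The imprinted gene Peg10, of retrotransposon origin, had 78.9 ± 43.4 and 3.28 ± 4.85 CPM in insulin-leading cells and 677 ± 312 and 434 ± 101 CPM in glucagon-leading cells. No gene was thus shown to change between the days in one class and not in the other, nor to change alike.

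In contrast to the days, the classes differed from each other in many genes. Insulin- and glucagon-leading cells of the same 6 sets were compared with the set as a block, a comparison chosen after the data were seen. Of 11345 genes 479 passed (4.22%), 313 higher in insulin-leading (2.76%) and 166 higher in glucagon-leading cells (1.46%). Without the hormones that define the classes, 311 and 162 remained. Leaving out any 1 set gave 305 to 357 calls, the fewest without E16.5 set 1 (305) and E17.5 set 4 (318).

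Beta cell genes were higher in insulin-leading cells for 13 of 18 tested members, the 2 insulin genes included, and lower for 0. The gene lists were chosen with earlier results of these data known. Their counts here and below are therefore descriptions and no independent test of the classes. Pdx1, which maintains beta cell identity and drives insulin transcription, was at 508 ± 109 against 34.4 ± 31.1 CPM (mean ± SD, n = 6 sets; log2 fold change 4.41 ± 0.54). Nkx6-1, which keeps beta cells from the alpha fate, was at 146 ± 98.9 CPM in insulin-leading cells, with a log2 fold change of 3.65 ± 0.38 against glucagon-leading cells. The glucose transporter gene Slc2a2 was at 454 ± 134 against 0.409 ± 0.472 CPM and Sytl4, a granule-docking protein, at 1124 ± 321 against 0.6248 ± 0.521 CPM. The glucose-6-phosphatase subunit gene G6pc2 (829 ± 425 against 82.5 ± 81.9 CPM), the receptor gene Glp1r, Gad1 and Ppp1r1a also passed. Of 8 alternatives, Glp1r and Gad1 each missed the threshold in 5. The prohormone convertase gene Pcsk1, which cleaves proinsulin, was at 1027 ± 188 against 167 ± 74.9 CPM (2.74 ± 0.20, adjusted p = 0.000163, edgeR's quasi-likelihood test).

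Alpha cell genes were lower in insulin-leading cells for 9 of 12 tested members, Gcg among them, and higher for 0. The homeobox gene Irx2 was at 3.76 ± 5.88 against 143 ± 84.3 CPM, Pou3f4 at 4.27 ± 7.44 against 89.5 ± 40.03 CPM and the kinase gene Wnk3 at 33.03 ± 25.3 against 496 ± 233 CPM. Transthyretin (Ttr) was at 1388 ± 895 against 7272 ± 3422 CPM, the amino acid transporter gene Slc38a5 at 1188 ± 648 against 7645 ± 3591 CPM, and Tmem27, a transmembrane protein better known from beta cells, at 358 ± 134 against 2731 ± 790 CPM.

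The folding machinery of the endoplasmic reticulum was higher in insulin-leading cells for 10 of 14 tested members and lower for 0, with a list median of 1.83 against 0.10 over all genes. The chaperone gene Hspa5 was at 4029 ± 1301 against 961 ± 152 CPM (2.01 ± 0.20), Hsp90b1 at 2330 ± 771 against 719 ± 124 CPM and Creld2 at 809 ± 333 against 111 ± 27.4 CPM (2.78 ± 0.30). Ero1lb, the oxidase that supports proinsulin disulphide bonds, was at 1192 ± 364 against 89.0 ± 32.4 CPM. Granule genes split: Chga, Chgb, Pcsk1 and Scg3 were higher in insulin-leading cells, and Cpe, Pam, Pcsk1n and Resp18 were lower, Cpe at 2713 ± 636 against 4530 ± 1871 CPM. Of 8 alternatives, Cpe missed the threshold in 5, Scg3 in 4 and Pcsk1n in 1, and the other granule genes named passed in all 8. Imprinted genes split as well, with Nnat at 8784 ± 3147 against 58.9 ± 56.1 CPM, Dlk1 and Meg3 higher and Peg3, Peg10 and Grb10 lower. Peg10 missed the threshold in 4 of the 8 alternatives.

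Genes named for the size of their difference included Rims3, Frzb, Tmem215, Krt19 and Mapt on the insulin side and Nxph1, Ppp1r3b, Ctxn2, Rgs4, Gyk, Ndst4 and Nap1l5 on the glucagon side. Rims3, which organises vesicle release sites, had 4620 counts in insulin-leading and 0 in glucagon-leading cells. That is at least 638-fold higher if 3 counts are taken as the floor of the whole group (counting error of reads only). Frzb, a secreted Wnt antagonist, was at 348 ± 53.8 against 0.151 ± 0.296 CPM. Gyk, glycerol kinase, was at 0.433 ± 0.724 CPM in insulin-leading and 119 ± 51.01 CPM in glucagon-leading cells. Rgs4, a regulator of G protein signalling, had 3.74 CPM in the insulin-leading cells of E17.5 set 2 and at most 0.215 CPM in those of the other sets, against 60.8 to 411 CPM in glucagon-leading cells.

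**Figure D4:**
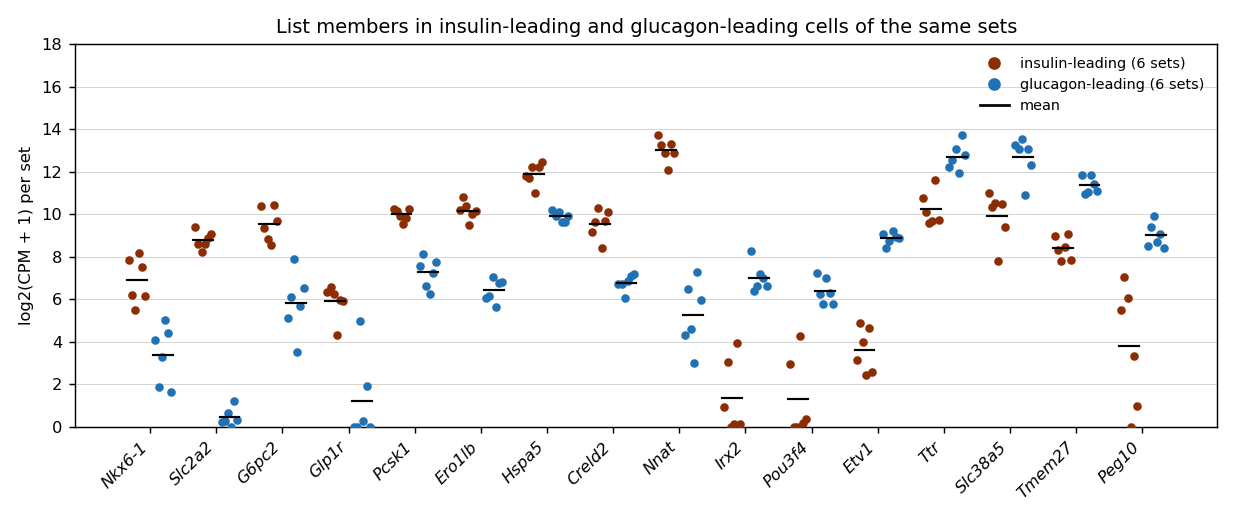
Levels of 16 list members on a log2(CPM + 1) axis in insulin-leading (brown) and glucagon-leading (blue) cells, 1 point for each of 6 sets and the mean as a bar. Slc2a2 lies at 454 ± 134 CPM in the first and 0.409 ± 0.472 CPM in the second, and Irx2 at 3.76 ± 5.88 and 143 ± 84.3 CPM.

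Cells without a hormone at 1000 CPM were compared with all hormone-leading cells in the 5 sets that held at least 5 of each, again a comparison chosen after the data were seen. Of 12789 genes 116 passed (0.907%), 48 higher (0.375%) and 68 lower (0.532%) in cells without a hormone; without the class hormones, 48 and 63. Without E16.5 set 1 there were 91 calls, without E16.5 set 3 there were 19 and without set 4 there were 25, and without E17.5 set 1 or 3 there were 35 and 23. These cells were a mixture: of 61, 19 had Neurog3 at 100 CPM, 13 had cell-cycle genes, 24 had narrow duct markers, 7 acinar, 4 mesenchyme and 1 leukocyte markers, with overlap among these counts. They also had fewer counts (median 650899) and genes (median 6947).

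Of the 48 genes higher in cells without a hormone, 2 were in the endocrine progenitor list, 2 in the S phase list and 1 in the duct and trunk list. Endocrine progenitor genes had positive values for 14 of 14, of which Amotl2, a junction protein, at 455 ± 308 against 38.6 ± 14.51 CPM (log2 fold change 3.32 ± 0.37) and Smarcd2, a chromatin remodelling subunit, at 359 ± 296 against 47.9 ± 7.37 CPM passed. S phase genes were positive for 16 of 16 with Mcm4 and Mcm5 past the threshold, Mcm5 at 115 ± 58.6 against 9.16 ± 1.92 CPM. The mucin gene Muc1 was at 313 ± 144 against 40.3 ± 7.25 CPM, Prom1, which marks pancreatic ductal epithelium, at 531 ± 435 against 42.7 ± 25.9 CPM, and Tead2, an effector of Hippo signalling, at 106 ± 33.3 against 4.89 ± 2.80 CPM. The acinar enzyme gene Cel had 0.929 to 661 CPM across the 5 sets against at most 0.488 CPM, and Sparc and Fstl1, matrix-associated secreted proteins, also passed. Of 7 alternatives, Smarcd2 and Mcm4 missed the threshold in 5, and Mcm5, Muc1, Tead2, Sparc and Fstl1 in 4.

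Of the 68 genes lower in cells without a hormone, 6 were in the granule and processing list, where 17 of 17 tested genes had negative values. Scg2 (secretogranin II) was at 79.7 ± 62.6 against 1421 ± 105 CPM (-4.57 ± 0.56), Scg3 at 208 ± 96.1 against 981 ± 106 CPM, Cpe at 770 ± 308 against 3212 ± 488 CPM, and Pcsk2, the convertase that makes glucagon, at 610 ± 563 against 2805 ± 309 CPM. Ptprn, a granule membrane protein, and Sez6l2 passed too. So did Rab27a, a GTPase of granule docking, at 69.2 ± 24.2 against 233 ± 14.4 CPM, and Abcc8, the sulphonylurea receptor of the ATP-sensitive potassium channel, at 445 ± 260 against 1620 ± 300 CPM. Iapp was at 596 ± 644 against 12292 ± 1771 CPM, and Rbp4, a retinol carrier, at 312 ± 194 against 3874 ± 1522 CPM. Th, the rate-limiting enzyme of catecholamine synthesis, had 1 count in cells without a hormone and 4751 in the others, a ratio of 2020 (95% exact interval 362 to 79784, counting error only). Irx2 and Nxph1 had 2 counts each, for ratios of 1104 (305 to 9118) and 1121 (310 to 9255). These intervals treat reads as independent although they are PCR copies, and they leave out the spread over cells and sets. Of 7 alternatives, Ptprn, Sez6l2 and Abcc8 missed the threshold in 5, and Scg2, Pcsk2, Rab27a, Iapp and Rbp4 in 4.

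**Figure D5:**
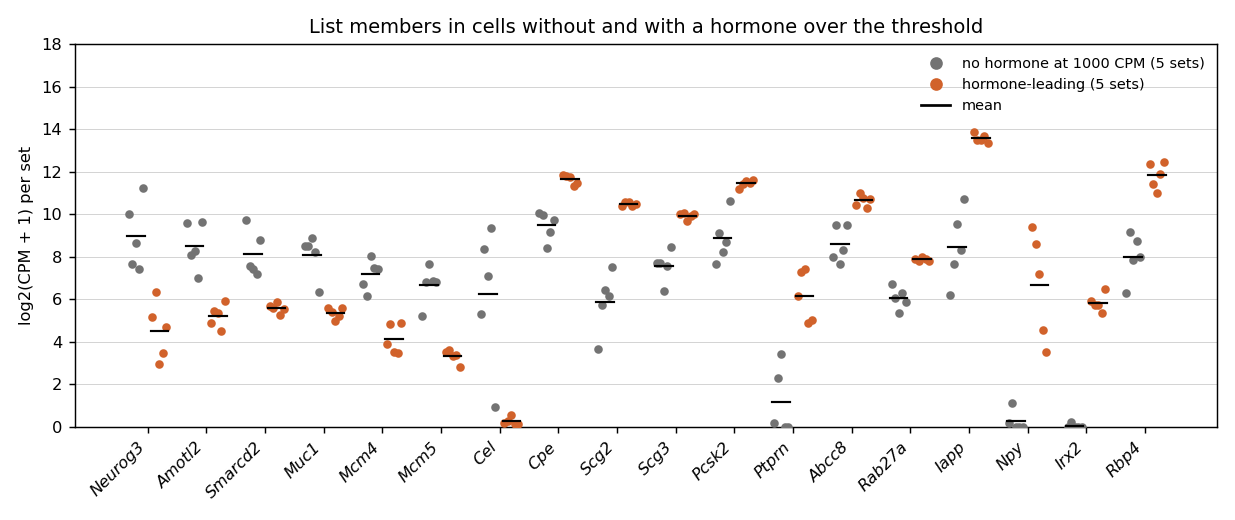
Levels of 18 list members on a log2(CPM + 1) axis in cells without a hormone at 1000 CPM (grey) and in hormone-leading cells (orange), 1 point for each of 5 sets and the mean as a bar. Scg2 lies at 79.7 ± 62.6 CPM in the first and 1421 ± 105 CPM in the second, and Amotl2 at 455 ± 308 and 38.6 ± 14.51 CPM.

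The day change of Ngn3-GFP+ cells was also set against that of Sox9-CreER;Rosa-RFP+ cells in 1 fit. Of 17225 genes 101 (0.586%) passed. The day change was the higher one in Ngn3-GFP+ cells for 69 of them (0.401%) and the lower one for 32 (0.186%), and leaving out 1 set gave 32 to 204 calls, with 32 and 204 reached without E16.5 set 2 and E17.5 set 2 of the Sox9-CreER cells. Fos stood at 396 ± 423 and 133 ± 83.0 CPM in the Ngn3-GFP+ sets of E16.5 and E17.5, and at 1.99 ± 0.637 and 382 ± 30.4 CPM in the 2 Sox9-CreER sets of each day (difference of log2 changes -9.15 ± 1.34, adjusted p = 0.0166, edgeR's quasi-likelihood test). Of 12 immediate early genes 12 were negative in this difference and 6 passed. Bhlha15, an acinar transcription factor, stood at 57.3 ± 13.4 and 40.1 ± 23.8 CPM in Ngn3-GFP+ cells and at 547 ± 11.2 and 1.62 ± 2.30 CPM in Sox9-CreER cells (7.96 ± 1.38), a call lost in 7 of 14 alternatives. It belongs to the acinar list, where 16 of 16 genes were positive in this difference (median 7.37, over all genes 0.03) and 1 passed. Whether the acinar content of the Sox9-CreER sets differed between the days was not tested. Tmem27 stood at 859 ± 324 and 1007 ± 108 CPM against 0.540 ± 0.430 and 26.3 ± 10.7 CPM (-5.35 ± 0.65). Serpinf2, the plasma alpha-2-antiplasmin, had 27.9 ± 14.8 and 13.9 ± 7.27 CPM against 95.8 ± 25.3 and 0 CPM.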

How the data were processed

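Smart-seq2 reads of 255 Ngn3-GFP+ cells were used. The authors deposited raw counts per gene and cell, made with TopHat2 2.1.0, Bowtie2 and HTSeq 0.6.0 on mm10, per the submitters' processing notes. Their deposited TPM values, scaled with the ERCC rows included, served only as an alternative for shares of cells. Amplification was by PCR without molecular identifiers. Of the count table, 1668 other per-cell columns were not used.

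Counts of 40824 genes (92 ERCC rows left out) were summed per set, and sets were the replicates. edgeR 4.0.16 (R 4.3.3) was run with TMM scaling, filterByExpr and quasi-likelihood tests, with Benjamini-Hochberg adjustment at 0.05. SE is the log2 fold change divided by the square root of F. Classes needed 5 cells in a set. Cell-cycle cells had 4 of 18 G2 and M genes at 50 CPM, and other-type cells 4 markers at 100 CPM. Shares of cells were compared with exact permutation tests (scipy 1.17.1). DESeq2 1.42.0 and limma 3.58.1 gave alternatives, with others listed in the closing section. The fits were also run on simulated counts with the same spread for every gene, smaller than the median spread in each fit here. That run therefore does not give the power or error of the comparisons above.

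Named genes were the 10 in each direction (8 within classes, 5 for interactions) past the threshold with the largest change, or else of smallest p, with at least 50 CPM in 1 group and no overlap between groups, plus Neurog3, the hormones and leading list members. The members and gene lists were chosen with earlier results of these data known. No cell had counts identical to another. Some results are not reported here.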

Additional observations from a re-analysis of the deposited data

Results flagged for a closer look

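A set far from the other 3 of its day was looked for in 186 groups of 4 sets and found in 12, where chance alone gives about 1 in 20. Set 2 of E17.5 accounted for 6 of them, with 53802 CPM of Ins1, 11984 CPM of Pyy, 3102 CPM of the pancreatic colipase gene Clps, 419 CPM of Npy, 359 CPM of Slc6a6 and 30.9 CPM of the mitotic gene Ube2c. Set 2 of E16.5 stood far above its day for Gcg (27934 CPM), Ghrl (3863 CPM) and Fos (1025 CPM). Set 4 of E17.5 stood apart for Slbp, a histone mRNA binding protein (65.99 CPM). The share of cells with Ppy over the threshold was 0% in set 4 of E16.5, and the share with leukocyte markers was 4.55% in set 3 of E17.5, which is 1 cell.

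The day change differed between Ngn3-GFP+ and Sox9-CreER;Rosa-RFP+ cells by the test of the difference itself for 10 named genes. The difference of log2 day changes was 7.96 for Bhlha15, 7.66 for C1qa, 6.21 for Nfasc and 6.13 for A1cf, and -9.15 for Fos, -6.39 for Dusp1, -5.35 for Tmem27, -5.23 for Egr1 and -4.38 for Ppp2r2b. The fitted value was 13.05 for Serpinf2, but the Sox9-CreER sets of E17.5 were at 0 CPM, so that value depends on the prior count and is no bound. The Sox9-CreER groups had 2 sets a day. Of 14 alternatives, the calls were lost in 10 for Dusp1 and Ppp2r2b, 9 for Nfasc, 7 for Bhlha15, 6 for Egr1, 2 for Fos and 1 for A1cf.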

How the results depend on the processing

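DESeq2 called 18, 12 and 67 genes between the days over all, insulin-leading and glucagon-leading cells, where edgeR called 0 in each. The same numbers on different days did not pair the sets (correlations of deviations 0.041, 0.031, 0.016 and -0.066), and adding that number to the fit (a replicate block) called 0, 0 and 0 genes, with 544, 552 and 311 at an unadjusted p under 0.05. A term for sets 1 and 2 against 3 and 4 turned Cpe to 0.00. Without the 223 of 255 cells bearing markers of another type (217 of the duct and trunk list), log2 fold changes turned for Aldoa (0.06), Btg2 (0.48), Cdh2 (-0.06), Chga (-0.12), Clps (-1.45), Gast (0.25), Iapp (-0.42), Npy (0.64), Peg3 (0.02), Rab36 (-0.50), Slbp (1.24), Slc38a5 (0.08) and Sst (-1.18). The 223 cells include 85 of 98 insulin-leading and 37 of 46 glucagon-leading cells. With the narrow duct list, log2 fold changes turned for Clps (-2.34), Ctrb1 (-0.66), Neurog3 (-0.20) and Slbp (0.10). The share with duct and trunk markers differed by 2.70 points with the threshold doubled. The cause was not tested.

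Leaving out each set in turn gave -0.08 to 0.06 for Aldoa, -0.25 to 2.79 for Clps, -0.29 to 0.18 for Cpe, -0.33 to 2.59 for Ctrb1, -0.19 to 0.95 for Iapp, -0.78 to 1.33 for Ins1, -0.74 to 1.24 for Ins2, -0.92 to 1.19 for Neurog3, -1.13 to 0.03 for Nnat, -0.09 to 0.14 for Slbp and -0.81 to 0.19 for Slc38a5. The difference of day changes of Ddx3y between classes ran from -12.19 to 1.61. Calls ran from 0 to 2 in glucagon-leading cells, 32 to 204 against Sox9-CreER cells, 305 to 357 between insulin- and glucagon-leading cells and 19 to 91 for cells without a hormone. Glucagon-leading cells without a second hormone, 3 of 46, were too few for a fit.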
